A study of Mus musculus with 18 samples.

Results

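The 50 genes described here, all of DNA replication, were followed through 4 groups of mouse thymocytes. They are the subunits and regulators of origin licensing, the replicative helicase, the polymerases with their clamp and loader, the single-strand binding protein, lagging-strand and fork-protection factors, the enzymes of deoxynucleotide supply, and 3 factors of chromatin assembly and histone mRNA. They were taken by symbol from the authors' deposited tables and joined by Ensembl identifier to the deposited count table, which lists 22619 genes, and all 50 were found and tested in every comparison. Their lowest count in any library was 13 reads.

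The samples were wild-type thymi grafted for 28 days, from which DN3 cells and DP cells were sorted. DN3 cells are CD4 and CD8 double-negative thymocytes at the stage of T-cell receptor beta rearrangement, and DP cells are the later CD4 and CD8 double-positive thymocytes. The 18 libraries were 5 of DP autonomy (RP1133, RP1135, RP1136, RP1137 and RP1138), 4 of DP turnover (RP1140A, RP1140B, RP1141A and RP1141B), 5 of DN3 autonomy (RP1133, RP1134, RP1135, RP1137 and RP1138) and 4 of DN3 turnover (RP1140A, RP1140B, RP1141A and RP1141B), and values below are listed in these orders. As the terms are used for grafted thymi, turnover is the replacement of thymocytes by progenitors from the host, and autonomy is thymopoiesis that the graft sustains from its own cells. All 4 groups share the wild-type donor thymus and the 28 days. The sources used here give neither hosts, strain and sex nor the number of animals or the meaning of the letters A and B. Since nothing says that libraries of a group came from separate animals, p-values measure only the spread between these libraries, which may be technical. Turnover and autonomy libraries carry different library numbers, so anything else tied to those numbers cannot be told apart from the groups.

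Replication starts in 2 separated steps. In G1, the origin recognition complex with Cdc6 and Cdt1 loads the Mcm2 to Mcm7 ring onto DNA, and geminin later holds Cdt1 back. In S phase, Cdc45 and the GINS complex join the ring to make the active helicase, and polymerases, clamp, clamp loader, ligase and checkpoint mediators travel with the fork. Thymocytes are known to divide rapidly once past beta selection, between the DN3 and DP stages, and most small DP cells are known to be out of the cell cycle. Transcription of many of these genes in late G1 is known to run through E2F factors.

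The promoters were read for the letters that E2F factors are known to bind, because these genes change together below. RefSeq gave a promoter window on GRCm38.p6, 250 bases before to 50 bases after the annotated start, for 41 of the 50 genes. The letters searched were TTTCCCGC, TTTCGCGC, TTTGCCGC and TTTGGCGC on both strands. They occurred in 15 of 41 genes (36.6%), against 704 of all 27025 genes with a window (2.6%). Shown 5′ to 3′ on the strand of the gene are the 8 genes with a match upstream of the RefSeq start. Each has 14 bases on either side where they lie upstream, and the capitals mark the E2F letters. The start depends on the annotation. By the gene bounds of GENCODE M21, the matches of Mcm6, Mcm5 and Pola1 lie upstream of the gene. Those of Orc1, Mcm7, Rfc3, Gins3 and Cdc6 lie inside it.

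Mcm6 (chr1:128359731-128359829, minus strand, 124 to 26 bases before the start): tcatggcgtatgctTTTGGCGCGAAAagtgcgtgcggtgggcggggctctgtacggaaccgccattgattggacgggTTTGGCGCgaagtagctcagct
Orc1 (chr4:108579413-108579448, plus strand, 41 to 6 bases before the start): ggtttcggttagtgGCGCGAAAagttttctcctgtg
Mcm7 (chr5:138172027-138172062, minus strand, 179 to 144 bases before the start): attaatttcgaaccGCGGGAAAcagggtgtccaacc
Rfc3 (chr5:151651209-151651232, minus strand, 24 to 1 bases before the start): gtgacgtcgcacgcTTTCGCGCtc
Mcm5 (chr8:75109342-75109381, plus strand, 167 to 128 bases before the start): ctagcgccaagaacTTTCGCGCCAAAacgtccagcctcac
Gins3 (chr8:95633504-95633539, plus strand, 55 to 20 bases before the start): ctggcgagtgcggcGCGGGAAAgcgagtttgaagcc
Cdc6 (chr11:98907999-98908034, plus strand, 152 to 117 bases before the start): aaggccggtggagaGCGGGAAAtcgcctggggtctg
Pola1 (chrX:93632272-93632307, minus strand, 152 to 117 bases before the start): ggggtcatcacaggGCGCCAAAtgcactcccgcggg

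Mcm6 held 3 matches, 2 of them overlapping on opposite strands, and Mcm5 held 2 that overlapped in the same way. The other members with a match, at or after the start, were Cdt1, Clspn, Lig1, Mcm3, Pold1, Pold3 and Pole2. CCAAT, read on both strands, was in 25 of the 41 genes with a window (61.0%), against 41.1% of all genes with a window. TTTGAA, the core of the cell cycle homology region, was in 5 of the 41 (12.2%), against 20.2% of all genes. A match describes the letters of a window and does not show binding.

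Total counts ran from 5032273 to 24191044 per library, and 17934 genes had at least 1 read. Levels below are CPM, read counts scaled to a common library size with TMM factors over the 18 libraries, given as mean ± SD (n = 5 autonomy or 4 turnover libraries) or library by library. Of the 7 DN3 markers 5 (Il2ra, Ptcra, Notch1, Hes1 and Dtx1) were lower in DP than in DN3 cells under both conditions, Cd3e did not pass under either, and Rag1, which is also in the DP list, was higher in DP. Of the 7 DP markers 6 were higher in DP under turnover, where Cd1d1 did not pass, and 7 under autonomy. Il2ra, the IL-2 receptor alpha chain of DN3 cells, averaged 29.8 ± 9.55 CPM in DP autonomy, 7.72 ± 6.22 in DP turnover, 392 ± 152 in DN3 autonomy and 416 ± 96.8 in DN3 turnover. Cd8a, the CD8 alpha chain of DP cells, averaged 2100.0 ± 44.1 CPM in DP autonomy, 2209.6 ± 77.2 in DP turnover and 57.9 ± 14.6 in DN3 autonomy. Its level was 6.88, 7.34, 2.53 and 385 CPM in DN3 turnover, so 3 of those libraries lay below every DN3 autonomy library and RP1141B above them. One library stood apart: the 7 DP markers summed to 1971 CPM in DN3 turnover RP1141B, against 292 to 539 CPM in the other DN3 turnover libraries and 306 to 442 CPM in DN3 autonomy. The counts of genes called in comparisons that hold it are given with and without it, with the genes that lost their call.

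The 50 genes together took a larger share of the RNA in DN3 than in DP libraries. Their summed level was 5228, 5216, 6199, 4618 and 7309.6 CPM in DP autonomy, 8062, 8607, 6433 and 6719.8 CPM in DP turnover, 24239.7, 23038.6, 20037.6, 25056 and 25557 CPM in DN3 autonomy and 13587, 13168, 15241 and 14955 CPM in DN3 turnover. The 2 DN3 groups did not overlap, with autonomy the higher, while DP autonomy RP1138 lay above 2 DP turnover libraries. As a share of all counts the genes made up 0.479% to 0.775% in DP autonomy, 0.697% to 0.935% in DP turnover, 1.89% to 2.25% in DN3 autonomy and 1.36% to 1.49% in DN3 turnover. In bulk RNA, fewer cells of a type and less RNA per cell cannot be told apart. Mki67, a proliferation marker outside the 50, averaged 303 ± 120.0 CPM in DP autonomy, 744 ± 171 in DP turnover, 568 ± 197 in DN3 autonomy and 313 ± 65.1 in DN3 turnover. The share of dividing cells in each sort was not measured.

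**Figure D1:**
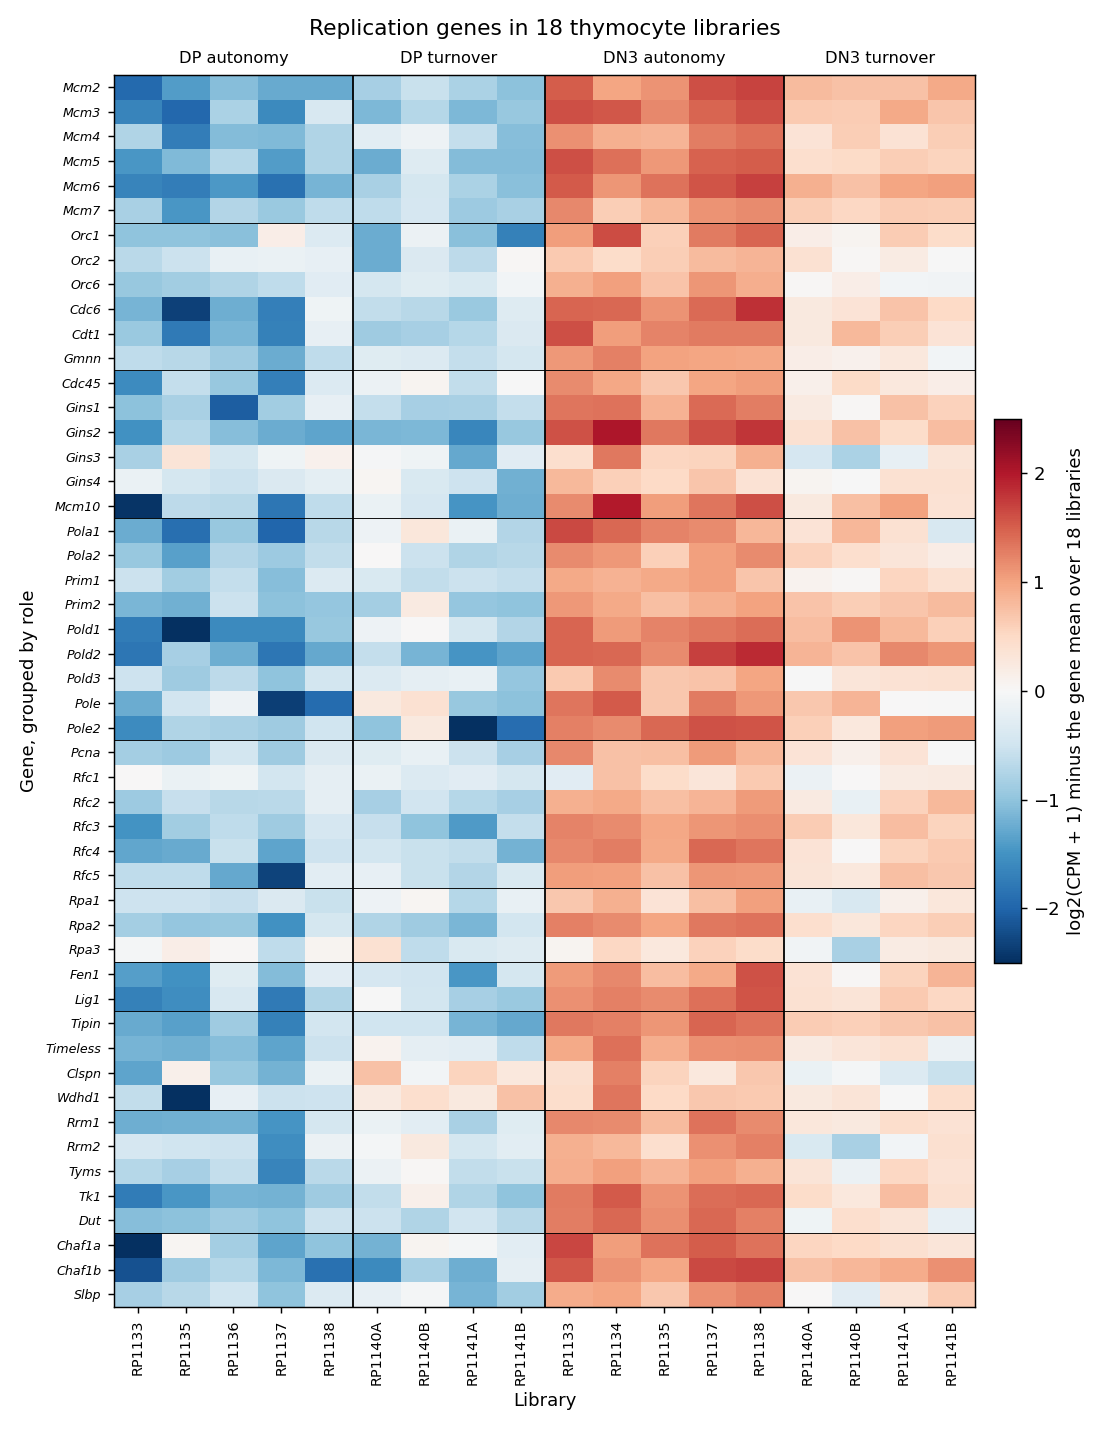
Level of the 50 replication genes in each of the 18 libraries, drawn as log2(CPM + 1) minus the gene's mean over all libraries (red above, blue below), with genes in rows grouped by role and libraries in columns grouped as DP autonomy, DP turnover, DN3 autonomy and DN3 turnover. The 5 DN3 autonomy columns are the reddest and the 5 DP autonomy columns are mostly the bluest, with the turnover columns of each stage between them for most genes.

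Per length of exon, Pcna was near the head of the list in both stages. Annotated pseudogenes exist for Pcna (Pcna-ps1 and Pcna-ps2) and Tyms (Tyms-ps), and how reads shared with them were counted is not known. In DN3 autonomy, Tipin stood at 502 ± 45.5 CPM per kb, Dut at 501 ± 42.9, Pcna at 451 ± 66.2 and Mcm6 at 437 ± 68.2, and neighbours in this order differed by less than the larger of their SDs. Tipin binds Timeless at the fork, Dut clears dUTP, and Pcna is the sliding clamp. In DP autonomy the head of the list was Pcna at 148 ± 27.5 CPM per kb, Rpa3 at 146 ± 28.7 and Rrm2 at 128 ± 39.0. Rpa3, the smallest subunit of the single-strand binding complex RPA, thus ranked 2 in DP autonomy per length and 10 in DN3 turnover. Pole, the catalytic subunit of the leading-strand polymerase, was the lowest per length in both autonomy groups, at 2.30 ± 1.45 CPM per kb in DP autonomy and 10.9 ± 2.33 in DN3 autonomy. Within the MCM ring, whose subunits assemble in equal number, the highest level per length was 2.88 to 5.07 times the lowest in every library. Length here is the union of all annotated exons of a gene, and a longer union lowers the level per length. It was 6956 bases for Mcm2 and 3589 to 4666 bases for the other ring genes.

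The first comparison set autonomy against turnover within DN3 cells. Of the 50 genes, 41 rose in DN3 autonomy, 0 fell and 9 did not pass the test, and all 50 had a log2 change above 0 (median 0.73, range 0.23 to 1.18). The test was edgeR's quasi-likelihood test, with p-values adjusted by the Benjamini-Hochberg method over the 10766 genes tested and a threshold of 0.05. Over all genes, 1602 passed (14.9%), of which 703 rose (6.53%) and 899 fell (8.35%), and the median log2 change was -0.05. The 0 genes that fell were also 0 at an unadjusted p under 0.05, with DESeq2 and with limma voom. The libraries of the 2 groups did not overlap in 37 of the 50 genes, with autonomy the higher in each, against 8.27% of all genes tested with autonomy the higher and 10.1% with it the lower.

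The MCM ring and the licensing factors rose together, with 5 of 6 and 6 of 6 genes past the test. Mcm6 had 2122, 1584, 1876, 2196 and 2413 CPM in DN3 autonomy, against 1368, 1222, 1465 and 1489 CPM in DN3 turnover (log2 0.55, SE 0.15, edgeR adjusted p = 0.0284). Mcm3 had 1119, 1079, 839.6, 999.9 and 1118 CPM in DN3 autonomy, against 576, 566, 703 and 591 CPM in DN3 turnover (log2 0.75, SE 0.14, edgeR adjusted p = 0.0047). For both ring subunits every autonomy library lay above every turnover library. Mcm7, the one subunit of the ring that did not pass, had a log2 change of 0.40 (edgeR adjusted p = 0.0833). Gmnn, which encodes the Cdt1 inhibitor geminin, had 429, 488, 409, 399 and 398 CPM in DN3 autonomy, against 228, 218, 242 and 194 CPM in DN3 turnover (log2 0.94, SE 0.14, edgeR adjusted p = 0.00124). Orc6, a subunit of the origin recognition complex, had 356, 392, 314, 408 and 361 CPM in DN3 autonomy, against 194, 213, 181 and 180.3 CPM in DN3 turnover (log2 0.92, SE 0.13, edgeR adjusted p = 0.00133). The inhibitor and the loading factors moved the same way, without overlap of the groups: Cdc6 rose by 1.0 and Cdt1 by 0.78 on the log2 scale. Orc1 (0.91) and Orc2 (0.52) rose as well, and the groups overlapped for Orc1. Of the exon bases of Orc2, 29.8% overlap Nif3l1 on the opposite strand, and use of strand in counting is not known.

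Genes of helicase activation and of the polymerases rose in 5 of 6 and 8 of 9 cases. Cdc45 had 280.3, 242, 196, 246 and 256 CPM in DN3 autonomy, against 135, 172, 147 and 138 CPM in DN3 turnover (log2 0.71, SE 0.14, edgeR adjusted p = 0.00722). Gins2, a GINS subunit, had 125, 169.6, 104, 127 and 144 CPM in DN3 autonomy, against 53.5, 68.9, 56.8 and 70.2 CPM in DN3 turnover (log2 1.10, SE 0.18, edgeR adjusted p = 0.00228). Both sets of libraries were apart, but 67.3% of the exon bases of Gins2 overlap Gse1 on the opposite strand, and the sources used here do not say if reads were counted by strand. Gins4, another GINS subunit, did not pass, with 136, 116, 109, 125 and 98.9 CPM in DN3 autonomy, against 80.9, 76.7, 99.8 and 101 CPM in DN3 turnover (log2 0.38, SE 0.16, edgeR adjusted p = 0.117). Pola1, the catalytic subunit of the priming polymerase alpha, had 748, 647, 565, 539.6 and 428 CPM in DN3 autonomy, against 305, 426, 312 and 182 CPM in DN3 turnover (log2 0.93, SE 0.23, edgeR adjusted p = 0.0178). Its libraries spread widely in both groups, and the lowest autonomy library stood just above the highest turnover library. Prim1, the catalytic primase subunit, had 443, 417, 438, 467 and 371 CPM in DN3 autonomy, against 243, 233, 331 and 296 CPM in DN3 turnover (log2 0.62, SE 0.15, edgeR adjusted p = 0.0149). Pold2, the accessory subunit of polymerase delta, had 354, 351, 296, 424 and 475 CPM in DN3 autonomy, against 233, 214, 298 and 278 CPM in DN3 turnover (log2 0.56, SE 0.17, edgeR adjusted p = 0.0405). Pold1, its catalytic subunit, had 409.6, 313, 356, 371 and 395 CPM in DN3 autonomy, against 255, 324, 263 and 224 CPM in DN3 turnover (log2 0.46, SE 0.14, edgeR adjusted p = 0.0466). The groups overlapped by 1 library on each side for Pold2 and for Pold1. Prim2, the large primase subunit, had the smallest change of all 50 genes (log2 0.23, SE 0.13, edgeR adjusted p = 0.236).

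The clamp rose, and the loader in part: with Pcna, 3 of 6 genes passed. Pcna had 1309, 947, 958, 1185 and 1009.6 CPM in DN3 autonomy, against 719, 616, 717 and 567 CPM in DN3 turnover (log2 0.71, SE 0.15, edgeR adjusted p = 0.00803), with no overlap. Rfc4 had 604, 641, 507, 717 and 669.9 CPM in DN3 autonomy, against 335, 266, 391 and 417 CPM in DN3 turnover (log2 0.82, SE 0.17, edgeR adjusted p = 0.00688), also with no overlap. Rfc3 was the other that passed (0.56), while Rfc1 (0.33), Rfc2 (0.50) and Rfc5 (0.47) did not. Part of the exon bases of Rfc2 (15.1%, Lat2), Rfc4 (12.7%, Eif4a2) and Rfc5 (10.7%, Wsb2) overlaps the gene named on the opposite strand. Among the RPA genes, Rpa2 had 411, 393, 342, 430.4 and 439.9 CPM in DN3 autonomy, against 230.2, 211, 251 and 265 CPM in DN3 turnover (log2 0.74, SE 0.14, edgeR adjusted p = 0.00411). Rpa3 had 181, 248, 207, 259 and 238 CPM in DN3 autonomy, against 162, 97.9, 199 and 205 CPM in DN3 turnover, with the groups overlapping (log2 0.44, SE 0.21, edgeR adjusted p = 0.171). Fen1 and Lig1, which trim and seal Okazaki fragments, both rose. Fen1 had 275, 302, 225, 253 and 399.7 CPM in DN3 autonomy, against 169, 133, 193 and 237 CPM in DN3 turnover (log2 0.66, SE 0.20, edgeR adjusted p = 0.0448), with overlap at DN3 autonomy RP1135. Lig1 had 376, 412, 391, 448 and 507 CPM in DN3 autonomy, against 222, 213, 270.5 and 246 CPM in DN3 turnover (log2 0.84, SE 0.14, edgeR adjusted p = 0.00312), without overlap.

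Fork-protection genes rose in 3 of 4 cases. Tipin had 947, 914, 815, 1048 and 968 CPM in DN3 autonomy, against 592, 572, 604 and 634 CPM in DN3 turnover (log2 0.64, SE 0.13, edgeR adjusted p = 0.00684). Timeless had 139.6, 188, 137, 160.2 and 162 CPM in DN3 autonomy, against 84.8, 88.8, 93.6 and 64.6 CPM in DN3 turnover (log2 0.92, SE 0.17, edgeR adjusted p = 0.00372). Clspn, which encodes the checkpoint mediator claspin, had 85.8, 157, 96.7, 78.7 and 105 CPM in DN3 autonomy, against 58.0, 62.6, 51.1 and 43.7 CPM in DN3 turnover (log2 0.95, SE 0.22, edgeR adjusted p = 0.0131). None of these 3 genes had a DN3 turnover library as high as any DN3 autonomy library. Wdhd1, which links the helicase to polymerase alpha, was likewise without overlap but did not pass (log2 0.50, SE 0.21, edgeR adjusted p = 0.117).

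All 5 nucleotide synthesis genes rose, and this group held the largest change. Dut had 1175, 1311, 1078, 1317 and 1159.9 CPM in DN3 autonomy, against 449, 644, 602 and 422 CPM in DN3 turnover (log2 1.18, SE 0.16, edgeR adjusted p = 0.000851). Rrm2, the small subunit of ribonucleotide reductase, had 971, 920.1, 702, 1154 and 1266 CPM in DN3 autonomy, against 401, 298, 499.5 and 697 CPM in DN3 turnover (log2 1.07, SE 0.24, edgeR adjusted p = 0.0116). Dut separated the groups by a wide gap, and Rrm2 by a narrow one between DN3 autonomy RP1135 and DN3 turnover RP1141B. Rrm1, the large subunit, rose by 0.81, the thymidine kinase gene Tk1 by 0.87 and the thymidylate synthase gene Tyms by 0.65 on the log2 scale. Slbp, whose product binds the stem-loop of histone mRNA, had 904, 938, 760.1, 1043 and 1138 CPM in DN3 autonomy, against 478, 389.6, 589 and 735 CPM in DN3 turnover (log2 0.79, SE 0.19, edgeR adjusted p = 0.0168), without overlap. Chaf1b, a subunit of the histone chaperone CAF-1, did not pass, with 337, 249.5, 226, 362 and 373 CPM in DN3 autonomy, against 192, 204, 218 and 254 CPM in DN3 turnover (log2 0.50, SE 0.17, edgeR adjusted p = 0.069). Chaf1a rose (0.97), but 52.5% of its exon bases overlap Ubxn6 on the opposite strand.

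Of the 41 genes, 23 kept their call when each of the 9 DN3 libraries was left out in turn. The count was 24 without DN3 turnover RP1140A and 37 without DN3 turnover RP1141B (Orc2, Mcm10, Pold1, Pold2 and Pole lost their call), and 15 with the A and B libraries of each number summed, which leaves 2 turnover samples. In the authors' deposited table for DN3, 43 of the 50 genes were higher and 0 lower at the authors' adjusted p under 0.05. Over all 22566 genes there, 1106 were higher and 1271 lower, and 10229 had no adjusted p. Scaled by library totals without TMM, 433 genes rose and 1239 fell, against 703 and 899 with TMM. All 50 members stayed above 0 with library totals (median 0.58, all genes -0.20), and 32 passed.

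Stage markers moved between the DN3 groups too. Of the 7 DN3 markers 1 rose in autonomy, 1 fell and 5 did not pass. Of the 7 DP markers 0 rose, 2 fell and 5 did not pass (all genes: 6.53% rose, 8.35% fell). Dtx1 averaged 113 ± 51.1 CPM in DN3 autonomy and 45.5 ± 5.15 in DN3 turnover, and Hes1 88.6 ± 39.3 and 162 ± 13.2. Ccr9 averaged 10.7 ± 8.54 and 280 ± 115, and Cd1d1 35.7 ± 2.98 and 81.6 ± 24.6, in the same order. Their part in the change was not tested. Levels of genes listed as markers of other cells also moved between the DN3 groups. Summed markers of thymic epithelium (5 genes, mostly Epcam) ran from 28.8 to 83.3 CPM in DN3 autonomy and from 90.1 to 113 CPM in DN3 turnover. For fibroblasts and endothelium (5 genes, mostly Pecam1) they ran from 42.5 to 65.5 CPM in DN3 autonomy and from 83.3 to 103 CPM in DN3 turnover. For B cells (5 genes, mostly Cd79b) they ran from 13.2 to 42.2 CPM in DN3 autonomy and from 52.3 to 91.4 CPM in DN3 turnover. For macrophages (7 genes, mostly Lyz2) they ran from 1.86 to 13.4 CPM in DN3 autonomy and from 17.9 to 36.5 CPM in DN3 turnover, and for dendritic cells (5 genes, mostly H2-Ab1) from 2.52 to 10.3 and from 10.5 to 29.4 CPM in the same order. NK markers (6 genes, nearly all Gzma) ran from 1835 to 2523 CPM in DN3 autonomy and from 1225 to 1700 CPM in DN3 turnover. That sum hides opposite changes: of the 2 NK markers tested, 1 passed as higher in autonomy and 1 as lower. Nkg7, the lower one, averaged 18.7 ± 26.2 CPM in DN3 autonomy, against 142 ± 23.0 CPM in DN3 turnover. Erythroid markers (4 genes) stayed under 6.24 CPM in both. Ms4a1 and Pax5 of the B cell list, Klrk1 of the NK list, Krt5 of epithelium and Pdgfra of fibroblasts had 0 reads in every DN3 library. Sums that rest mostly on 1 gene do not show that such cells were present. Whether they were, and their part in the change of the replication genes, was not tested.

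**Figure D2:**
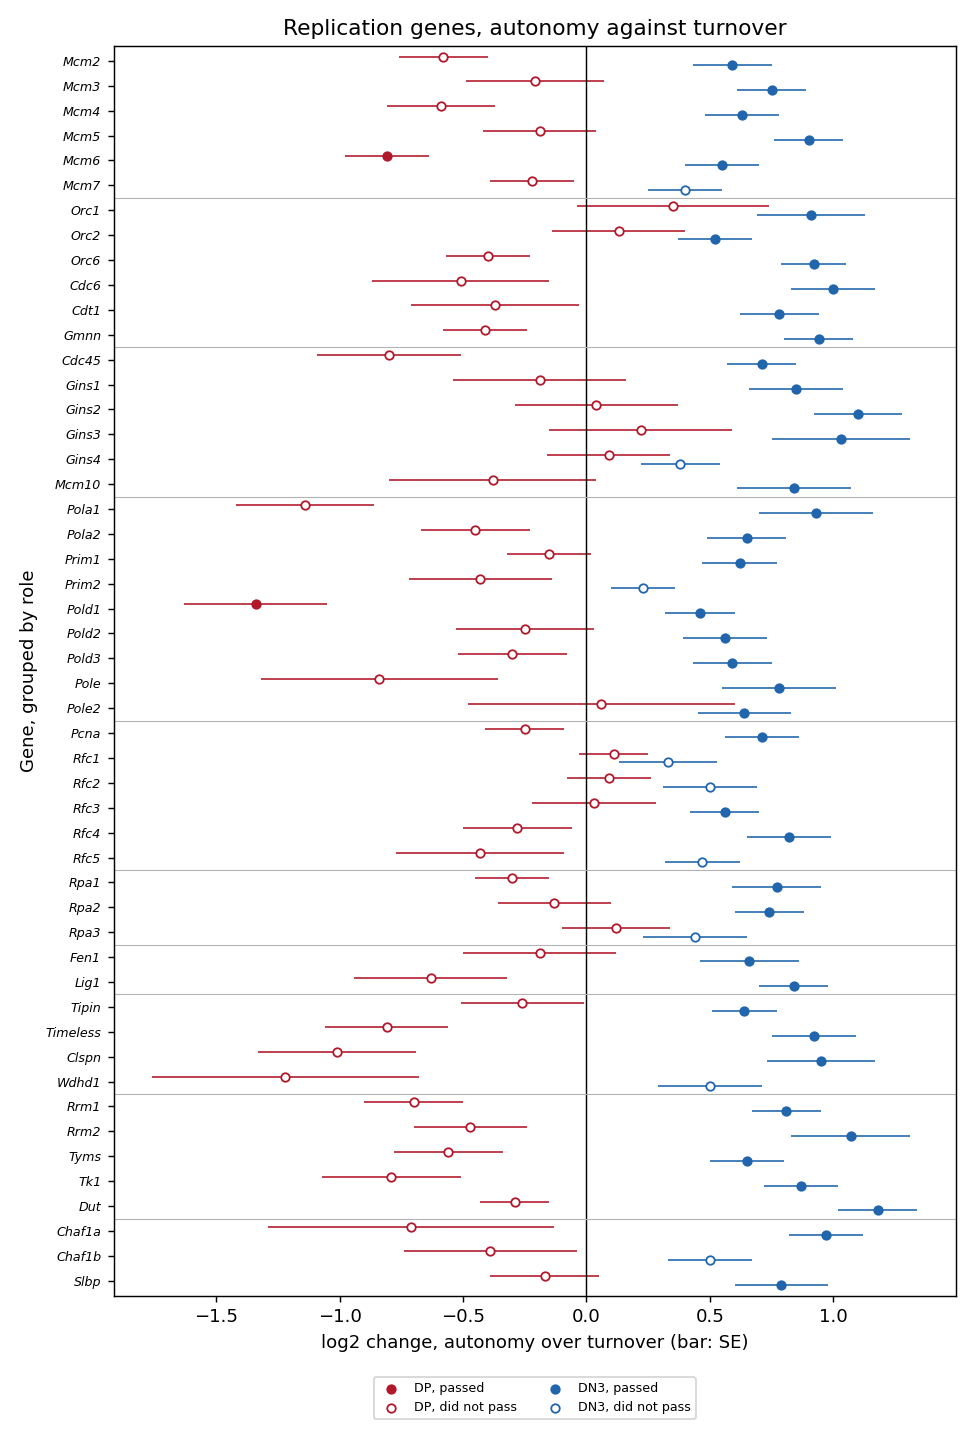
Log2 change of each of the 50 genes, autonomy over turnover, in DP (red) and DN3 (blue) cells, with bars for the SE; filled points passed the test at an adjusted p of 0.05 and open points did not. The blue points all lie to the right of 0 and 41 are filled, while 40 red points lie to the left of 0 and 2 of those are filled.

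The second comparison set autonomy against turnover within DP cells, where few of the 50 genes passed. Pold1 and Mcm6 fell in DP autonomy, 0 genes rose and 48 did not pass, with 40 log2 changes below 0 and 10 above (median -0.34, range -1.34 to 0.35). Over all 10339 genes tested, 178 passed (1.72%), 89 in each direction (0.861%), and the median log2 change was -0.02. The 0 genes that rose were also 0 at an unadjusted p under 0.05, with DESeq2 and with limma voom, and 14 genes were lower at an unadjusted p under 0.05. The share of all genes at an unadjusted p was not counted, in this or the other comparisons, so the 14 have no baseline. In 5 genes the groups did not overlap, with autonomy the lower in each (Mcm2, Mcm6, Gmnn, Pold1 and Wdhd1), against 3.97% of all genes tested with autonomy the lower and 4.24% with it the higher.

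Pold1 had 43.5, 23.98, 49.0, 48.7 and 76.6 CPM in DP autonomy, against 137, 150.3, 109 and 88.8 CPM in DP turnover (log2 -1.34, SE 0.29, edgeR adjusted p = 0.0359). Mcm6 had 234, 221, 272, 200.02 and 327 CPM in DP autonomy, against 418, 545, 426 and 355 CPM in DP turnover (log2 -0.81, SE 0.17, edgeR adjusted p = 0.0301). In both genes the highest autonomy library was RP1138, and it stood below every turnover library. Pola1 had the lowest adjusted p of the genes that did not pass, with 100.5, 63.8, 123, 59.6 and 146 CPM in DP autonomy, against 219.8, 289, 212 and 144 CPM in DP turnover (log2 -1.14, SE 0.28, edgeR adjusted p = 0.0535), with RP1138 of autonomy just above RP1141B of turnover. Timeless had 31.8, 31.0, 34.1, 28.3 and 49.7 CPM in DP autonomy, against 76.3, 61.8, 60.0 and 46.0 CPM in DP turnover (log2 -0.81, SE 0.25, edgeR adjusted p = 0.109). Clspn had 25.4, 71.2, 33.2, 28.3 and 57.5 CPM in DP autonomy, against 109, 62.1, 96.2 and 78.1 CPM in DP turnover (log2 -1.01, SE 0.32, edgeR adjusted p = 0.126). Both fork genes overlapped in 1 or more libraries and did not pass. Wdhd1 had 44.7, 2.44, 59.8, 47.6 and 48.0 CPM in DP autonomy, against 80.5, 92.7, 82.4 and 116 CPM in DP turnover (log2 -1.22, SE 0.54, edgeR adjusted p = 0.273). DP autonomy RP1135, at 2.44 CPM, set much of the spread of Wdhd1.

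The remaining ring and licensing genes did not pass in DP cells. At an unadjusted edgeR p under 0.05, 3 of the 6 ring genes, Mcm6 included, and 2 of the 6 licensing genes were lower, again without a count over all genes. Mcm2, without overlap, averaged 115 ± 23.7 CPM in DP autonomy, against 171 ± 22.7 CPM in DP turnover. Mcm3 had 116, 93.4, 210.1, 121 and 277 CPM in DP autonomy, against 169, 222, 168 and 189.7 CPM in DP turnover (log2 -0.21, SE 0.28, edgeR adjusted p = 0.775). Gmnn had 129, 124, 108, 84.3 and 129 CPM in DP autonomy, against 164, 159.8, 133 and 148 CPM in DP turnover (log2 -0.41, SE 0.17, edgeR adjusted p = 0.239). Orc6 had 98.0, 104, 113, 123 and 156 CPM in DP autonomy, against 140.1, 154, 146 and 182 CPM in DP turnover (log2 -0.40, SE 0.17, edgeR adjusted p = 0.255). Geminin was without overlap but small in size, and Mcm3 and Orc6 overlapped. Cdc45 had 40.9, 81.6, 63.2, 37.0 and 97.4 CPM in DP autonomy, against 112, 129, 80.1 and 123 CPM in DP turnover, with RP1135 and RP1138 of autonomy above RP1141A of turnover (log2 -0.80, SE 0.29, edgeR adjusted p = 0.173). Gins2 had 13.6, 24.5, 19.1, 16.8 and 15.9 CPM in DP autonomy, against 18.1, 18.3, 12.6 and 20.7 CPM in DP turnover, so the GINS gene with the largest rise in DN3 cells overlapped between the DP groups (log2 0.04, SE 0.33, edgeR adjusted p = 0.971). Gins4 had 67.9, 56.7, 52.9, 59.3 and 64.5 CPM in DP autonomy, against 79.6, 58.8, 53.3 and 32.9 CPM in DP turnover (log2 0.09, SE 0.25, edgeR adjusted p = 0.896).

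Of the other fork enzymes and the nucleotide genes, the 6 given here overlapped between the DP groups. Pold2 had 36.1, 72.7, 54.9, 36.1 and 52.7 CPM in DP autonomy, against 85.3, 57.1, 46.0 and 51.2 CPM in DP turnover (log2 -0.25, SE 0.28, edgeR adjusted p = 0.714). Prim1 had 156, 124, 150.4, 108 and 179 CPM in DP autonomy, against 176, 148, 156 and 151 CPM in DP turnover (log2 -0.15, SE 0.17, edgeR adjusted p = 0.727). Pcna had 314, 301, 411, 305 and 439 CPM in DP autonomy, against 459, 497, 389 and 320.2 CPM in DP turnover (log2 -0.25, SE 0.16, edgeR adjusted p = 0.499). The clamp and primase values thus lay within the spread of the libraries. Rfc4 had 107, 109, 178, 105 and 184 CPM in DP autonomy, against 191, 179.7, 171 and 115 CPM in DP turnover (log2 -0.28, SE 0.22, edgeR adjusted p = 0.597). Dut had 231, 237, 260.3, 241 and 335 CPM in DP autonomy, against 334, 287, 345 and 299 CPM in DP turnover (log2 -0.29, SE 0.14, edgeR adjusted p = 0.315). Rrm2 had 389.8, 373, 364, 179 and 473 CPM in DP autonomy, against 506, 619.5, 387 and 438 CPM in DP turnover (log2 -0.47, SE 0.23, edgeR adjusted p = 0.334). Autonomy RP1137 was the lowest of the 9 for Rrm2, and RP1138 the highest autonomy library for Dut and Rrm2.

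The RPA, lagging-strand and histone mRNA genes with values here also overlapped. Rpa3 had 167, 194, 176, 111 and 182 CPM in DP autonomy, against 225, 111, 132 and 138 CPM in DP turnover (log2 0.12, SE 0.22, edgeR adjusted p = 0.836). Rpa2 had 95.0, 87.0, 88.9, 59.3 and 127 CPM in DP autonomy, against 102, 93.1, 77.8 and 125 CPM in DP turnover (log2 -0.13, SE 0.23, edgeR adjusted p = 0.824). Fen1 had 49.96, 45.4, 107, 61.8 and 107 CPM in DP autonomy, against 98.6, 93.8, 47.2 and 96.2 CPM in DP turnover (log2 -0.19, SE 0.31, edgeR adjusted p = 0.817). These 3 changes were smaller than their SEs, while Rpa1, the large RPA subunit, which did not pass either, lay further from 0 (log2 -0.30, SE 0.15, edgeR adjusted p = 0.346). Lig1 had 52.6, 57.3, 129, 49.2 and 101 CPM in DP autonomy, against 169.8, 124, 95.1 and 89.5 CPM in DP turnover (log2 -0.63, SE 0.31, edgeR adjusted p = 0.327). Tipin had 158, 147, 205, 116 and 276 CPM in DP autonomy, against 268, 267, 168 and 155 CPM in DP turnover (log2 -0.26, SE 0.25, edgeR adjusted p = 0.674). Slbp had 267, 292, 333, 235 and 373 CPM in DP autonomy, against 410.1, 456, 209.6 and 259 CPM in DP turnover (log2 -0.17, SE 0.22, edgeR adjusted p = 0.77). Autonomy RP1138 was above every turnover library for Tipin, and above 2 of the 4 for Lig1 and for Slbp. Chaf1b had 24.6, 61.2, 69.5, 52.3 and 30.7 CPM in DP autonomy, against 37.1, 64.6, 48.3 and 97.1 CPM in DP turnover (log2 -0.39, SE 0.35, edgeR adjusted p = 0.644). The 10 genes with a log2 change above 0 were Orc1 (0.35), Gins3 (0.22), Orc2 (0.13), Rpa3 (0.12), Rfc1 (0.11), Gins4 (0.09), Rfc2 (0.09), Pole2 (0.06), Gins2 (0.04) and Rfc3 (0.03), each smaller than its SE. With library totals in place of TMM, Gins2 and Rfc3 turned below 0.

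Neither call in DP cells kept its side of the threshold in every leave-one-out fit: 0 genes were lower without DP turnover RP1140A, RP1140B or RP1141A or without DP autonomy RP1133 or RP1137, 1 without DP turnover RP1141B or DP autonomy RP1135 or RP1136, and 4 without DP autonomy RP1138. DESeq2's Wald test called 7 genes lower (Mcm2, Mcm6, Pola1, Pold1, Timeless, Clspn and Rrm1) and limma voom 5, and the authors' deposited table for DP also held 7 lower and 0 higher. Over all 22566 genes there, 438 were higher and 416 lower, and 11428 had no adjusted p. Library totals without TMM called 76 genes higher and 117 lower over all genes, against 89 and 89 with TMM. Summed macrophage markers ran from 16.2 to 125 CPM in DP autonomy and from 2.47 to 27.2 CPM in DP turnover, dendritic cell markers from 7.10 to 140 and from 5.94 to 11.5 CPM in the same order, and the 7 DN3 markers from 1200.3 to 1604 and from 1102 to 1199 CPM. Adgre1 of the macrophage list had 0 reads in every DP autonomy library. Whether such cells were present, and their part in the result, was not tested.

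**Figure D3:**
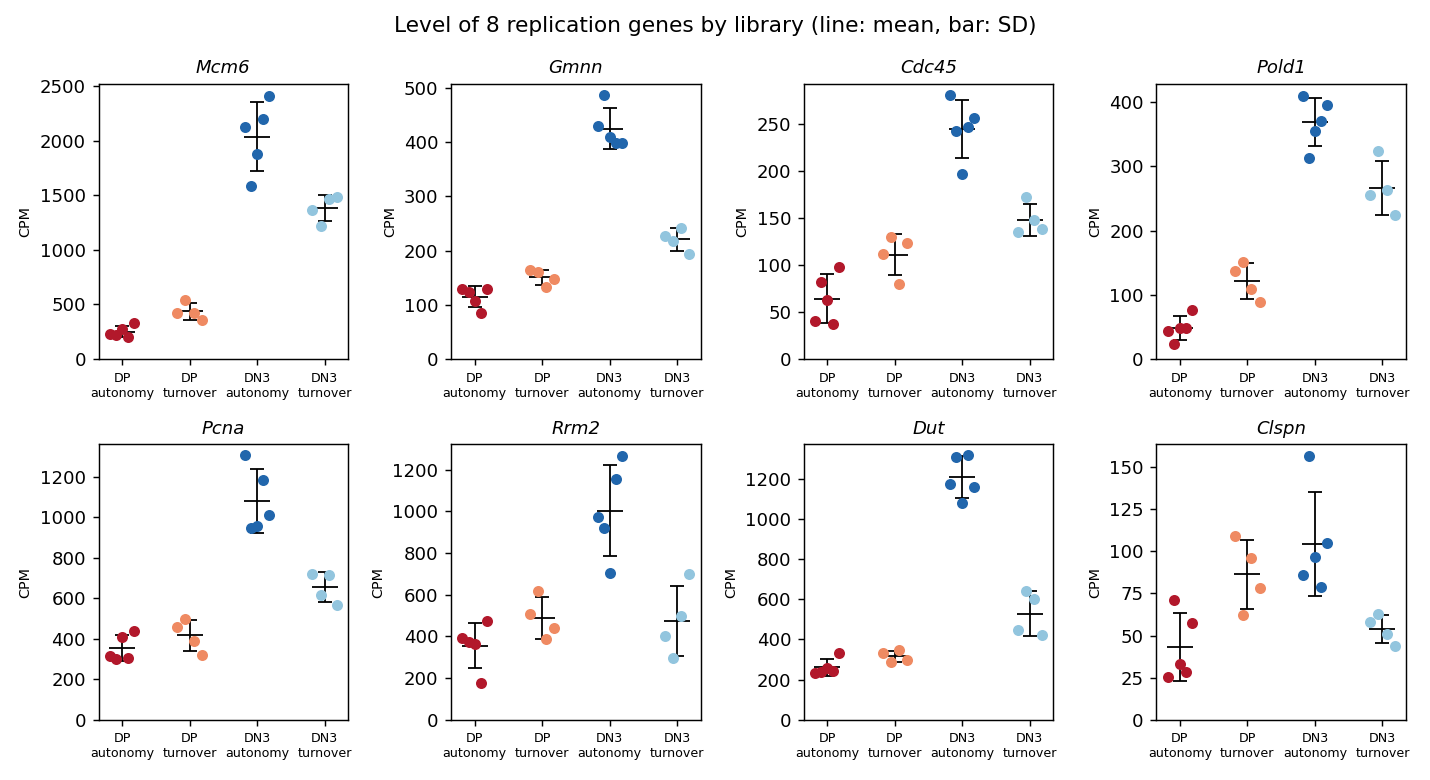
CPM of Mcm6, Gmnn, Cdc45, Pold1, Pcna, Rrm2, Dut and Clspn in every library, with DP autonomy, DP turnover, DN3 autonomy and DN3 turnover from left to right; each point is a library, the line is the mean and the bar the SD (n = 5, 4, 5 and 4). Autonomy lies above turnover in DN3 cells for each of the 8 genes, with overlap for Pold1, and Clspn has higher mean levels in DP turnover than in DN3 turnover.

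The third comparison tested whether the effect of autonomy differed between the stages, as the autonomy effect in DP minus that in DN3, in a single fit of all 18 libraries. All 50 genes had a difference below 0 (median -1.07, against 0.06 over all genes), 26 passed as lower in DP and 0 as higher. Over the 11521 genes tested, 633 passed (5.49%), 301 as lower (2.61%) and 332 as higher (2.88%). The 0 higher were also 0 at an unadjusted p under 0.05, with DESeq2 and with limma voom. By role, 4 of 6 MCM, 3 of 6 licensing, 2 of 6 helicase activation, 5 of 9 polymerase, 2 of 6 clamp and loader, 2 of 3 RPA, 1 of 2 lagging-strand, 2 of 4 fork-protection and 5 of 5 nucleotide genes passed. Of the 3 chromatin and histone mRNA genes 0 passed by edgeR, though 3 were lower at an unadjusted p under 0.05.

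The largest differences of single genes were those of Pola1, Clspn and Pold1. For Pola1 the log2 effect of autonomy was -1.14 in DP and 0.93 in DN3, and the difference was -2.07 (SE 0.39) with an edgeR adjusted p of 0.00341. For Clspn it was -1.01 in DP and 0.95 in DN3 (difference -1.96, edgeR adjusted p = 0.00797). For Pold1 it was -1.34 in DP and 0.46 in DN3 (difference -1.80, edgeR adjusted p = 0.00265). All 3 rose in DN3 autonomy, and of the 3 only Pold1 passed as lower in DP autonomy. Timeless, at -0.81 in DP and 0.92 in DN3, differed by -1.73 (edgeR adjusted p = 0.000845). Dut, at -0.29 in DP and 1.18 in DN3, differed by -1.47 (edgeR adjusted p = 0.000349). Gmnn, at -0.41 in DP and 0.94 in DN3, differed by -1.34 (edgeR adjusted p = 0.00053). For Dut and Gmnn the effect in DN3 was the larger of the pair. Mcm6, at -0.81 in DP and 0.55 in DN3, differed by -1.36 (edgeR adjusted p = 0.00121), with both stages contributing. The effects for a stage come from the fit of its own libraries, so they do not subtract exactly to the difference from all 18.

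Of the 26 genes, 18 kept their call without each of the 18 libraries in turn. The count was 23 without DN3 turnover RP1141B (Cdc6, Gins2, Pold3 and Rpa2 lost their call), 19 without DN3 turnover RP1140A, and 9 with the A and B libraries summed. With library totals in place of TMM, 430 genes were higher and 250 lower, against 332 and 301 with TMM, and the median over all genes was 0.15 and over the members -0.97.

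The last pair of comparisons set DP against DN3 cells within each condition. Under turnover, 37 of the 50 genes were lower in DP than in DN3 cells, 0 were higher and 13 did not pass (median -0.98, against -0.04 over all genes). Over the 11521 genes tested, 4021 passed (34.9%), 2201 lower (19.1%) and 1820 higher (15.8%). The 0 higher genes were also 0 with DESeq2 and limma voom, and 1, Clspn, was higher at an unadjusted p under 0.05. The groups did not overlap in 36 genes, each lower in DP, against 19.7% of all genes tested. Under autonomy, 49 of the 50 were lower in DP, 0 were higher by edgeR, DESeq2 or limma voom or at an unadjusted p under 0.05, and the median was -2.06, against -0.00 over all genes. There 5643 of all genes passed (49.0%), 2907 lower (25.2%) and 2736 higher (23.7%), and 48 members did not overlap, against 20.8% of all genes lower without overlap.

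Every gene of the MCM ring, Mcm2 to Mcm7, was lower in DP than in DN3 cells under both conditions. Taking the values of each library given above, Mcm6 differed by -1.67 (SE 0.17) on the log2 scale under turnover (edgeR adjusted p = 5.38e-07) and by -3.02 (SE 0.16) under autonomy (edgeR adjusted p = 7.41e-11). In each condition the highest DP library of Mcm6 lay below the lowest DN3 library. Pold2 differed by -2.10 (SE 0.24) under turnover and by -2.91 (SE 0.22) under autonomy, the largest difference of the 50 under turnover (edgeR adjusted p = 1.8e-06 and 2.62e-09). Gins2 differed by -1.84 (SE 0.22) and -2.89 (SE 0.21), and Chaf1b by -1.81 (SE 0.31) and -2.69 (SE 0.29), in the same order. All 3 genes had DP levels far below DN3 levels, with no overlap. Pold1 differed by -1.13 (SE 0.24) under turnover and -2.93 (SE 0.23) under autonomy (edgeR adjusted p = 0.00128 and 4.95e-09).

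Some genes did not follow the ring at the turnover stage. Rrm2 had 488 ± 101 CPM in DP turnover, against 474 ± 170.0 CPM in DN3 turnover (log2 0.04, SE 0.27, edgeR adjusted p = 0.921), and 356 ± 108 CPM in DP autonomy, against 1003 ± 218 CPM in DN3 autonomy (log2 -1.50, SE 0.24, edgeR adjusted p = 4.13e-05). Clspn had 86.3 ± 20.5 CPM in DP turnover, against 53.8 ± 8.25 CPM in DN3 turnover (log2 0.68, SE 0.30, edgeR adjusted p = 0.0863), the largest of the 3 log2 differences above 0. It passed as higher when only the 2 turnover groups were fitted (edgeR adjusted p = 0.0364) and with library totals (0.0442). Under autonomy Clspn ran the other way (log2 -1.28, SE 0.27, edgeR adjusted p = 0.000627). Wdhd1 (0.17) and Rrm2 (0.04) were the other genes above 0 under turnover. Also not past the test under turnover were Orc6 (-0.30), Cdc45 (-0.42), Gins3 (-0.13), Pola1 (-0.50), Pole (-0.63), Rfc1 (-0.40), Rpa1 (-0.20), Rpa3 (-0.13), Timeless (-0.44) and Chaf1a (-0.73). Under autonomy the one gene not past it was Rpa3 (log2 -0.45, SE 0.21, edgeR adjusted p = 0.0913), and the smallest difference that passed was Rfc1 (log2 -0.60, SE 0.16, edgeR adjusted p = 0.00427). Rfc1, the large subunit of the clamp loader, overlapped between the stages there at DN3 autonomy RP1133.

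Without DN3 turnover RP1141B, the library with the high DP markers, 34 genes were lower under turnover (Gins4, Tyms and Slbp lost their call), and 19 with the A and B libraries summed. Under autonomy the count stayed at 48 or 49 without any 1 library, with Gins3 lost without DN3 autonomy RP1134. Under turnover, library totals called 2159 genes higher and 1888 lower, against 1820 and 2201 with TMM. The median there was -0.85 over the members, 4 of them above 0, and 0.09 over all genes. Library totals called 3382 genes higher and 2360 lower under autonomy, against 2736 and 2907 with TMM. All 50 members stayed below 0 under autonomy with library totals (median -1.83, all genes 0.22). The 2 stage contrasts share no library, but each shares its libraries with the autonomy comparisons.

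**Figure D4:**
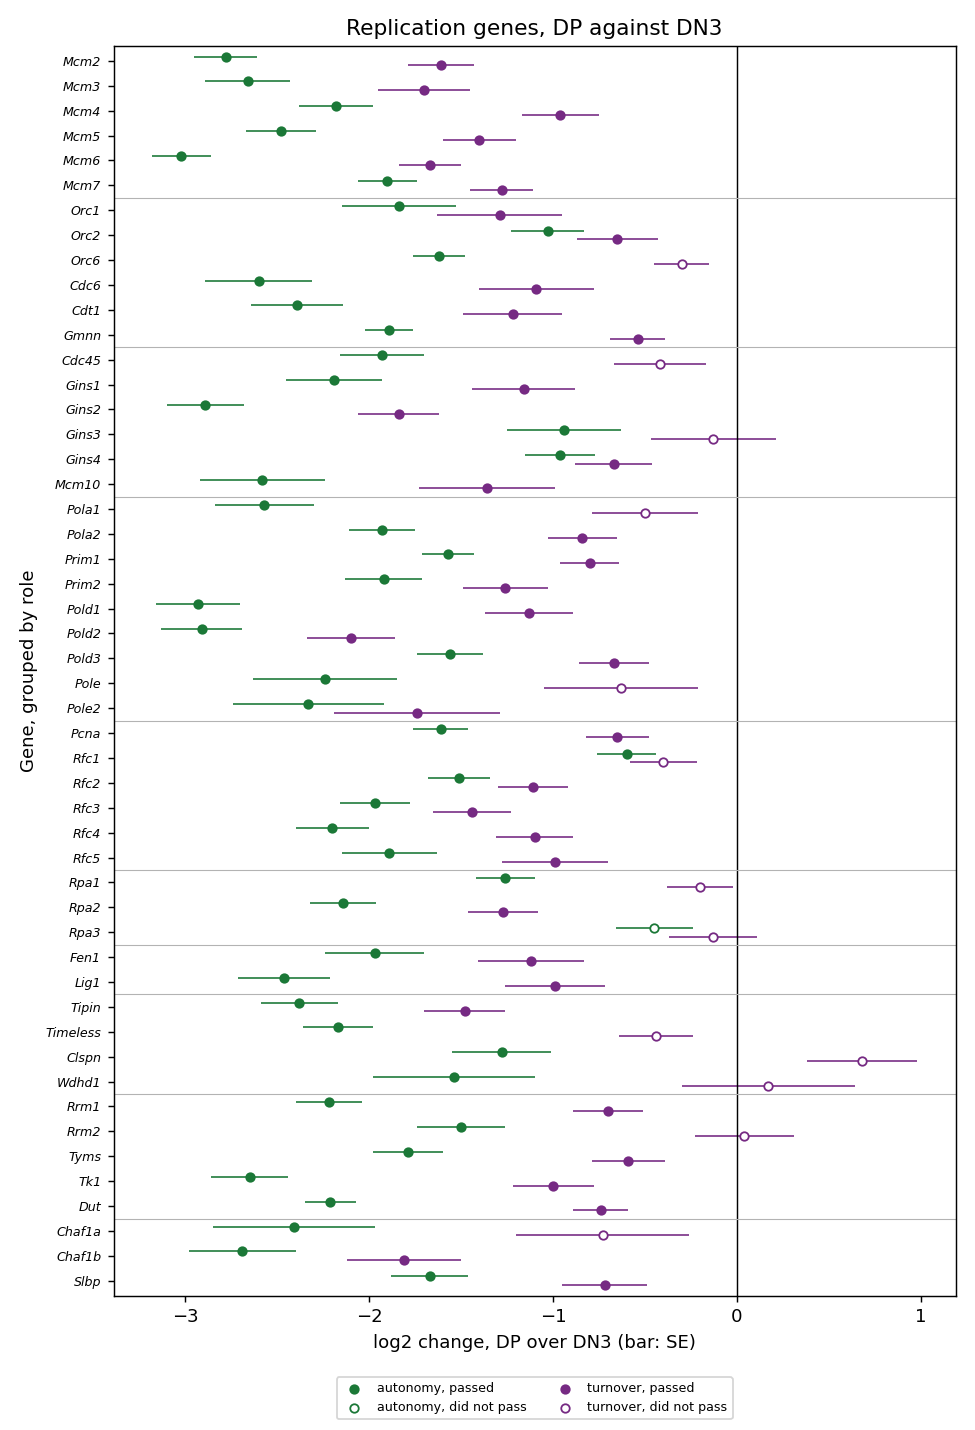
Log2 difference of each of the 50 genes, DP over DN3, under autonomy (green) and turnover (purple), with bars for the SE and genes grouped by role; filled points passed at an adjusted p of 0.05. All green points lie left of 0 and 49 are filled, and 47 purple points lie left of 0, with Clspn, Wdhd1 and Rrm2 to the right as open points.

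The E2F letters in the promoter were set beside the changes. In DN3 autonomy 14 of the 15 genes with a match rose (median log2 change 0.78) and 21 of the 26 without a match (0.71). In DP autonomy 2 of the 15 fell (median -0.30) and 0 of the 26 (-0.38). For DP against DN3 under turnover, 12 of 15 genes with a match were lower (median -1.22) and 17 of 26 without (-0.72), and under autonomy 15 of 15 (-2.39) and 25 of 26 (-1.93). The difference of the autonomy effect passed in 8 of 15 with a match (-1.08) and in 15 of 26 without (-1.10). Mcm6, whose 3 matches are printed above, had the largest stage difference under autonomy. Pold2, which has no match, had the largest stage difference under turnover. Pold1 and Mcm6, the genes that fell in DP autonomy, both hold a match, that of Pold1 after the start. A link between the letters and the changes was not tested.

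Other genes of the same pathways were counted from 5 lists with 61 genes in all. In DN3 autonomy 19 of the 60 tested rose and 1 fell, against 6.53% and 8.35% of all genes tested. By list, 3 of 13 rose in origin firing, 6 of 16 at the polymerase and fork and 2 of 9 in nucleotide synthesis. In chromatin assembly 4 of 7 rose, and in S-phase entry 4 of 15. Pclaf, a Pcna-binding protein, rose to 579 ± 122 CPM in DN3 autonomy, against 236 ± 37.2 CPM in DN3 turnover (log2 1.29, SE 0.18, edgeR adjusted p = 0.00113). Ccne1 and Ccne2 encode the E-type cyclins that drive entry into S phase. Ccne1 rose to 158 ± 50.4 CPM in DN3 autonomy, against 58.3 ± 14.4 CPM in DN3 turnover (log2 1.43, SE 0.26, edgeR adjusted p = 0.00367). Ccne2 rose to 354 ± 97.0 CPM in DN3 autonomy, against 144 ± 15.8 CPM in DN3 turnover (log2 1.29, SE 0.20, edgeR adjusted p = 0.00186). The gene that fell was Cdkn1a, which encodes the CDK inhibitor p21, with 22.1 ± 9.32 CPM in DN3 autonomy, against 65.4 ± 5.88 CPM in DN3 turnover (log2 -1.57, SE 0.25, edgeR adjusted p = 0.00228). Ticrr (0.73) and Dbf4 (0.56) in origin firing, Exo1 (1.03) at the fork, Shmt1 (0.65) in folate metabolism, and the histone chaperone and acetyltransferase genes Asf1a (0.70) and Hat1 (0.72) also rose. E2f1 (-0.21, edgeR adjusted p = 0.74) and E2f2 (0.40, edgeR adjusted p = 0.162) did not pass. Mki67 rose (log2 0.86, SE 0.24, edgeR adjusted p = 0.0303).

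In DP autonomy 4 of the 59 tested fell and 1 rose, against 0.861% of all genes tested in each direction. Rb1, the retinoblastoma gene, fell to 50.9 ± 15.3 CPM in DP autonomy, against 176 ± 66.0 CPM in DP turnover (log2 -1.80, SE 0.27, edgeR adjusted p = 0.00967). Ccna2, the S-phase cyclin A gene, fell to 108 ± 46.6 CPM in DP autonomy, against 333 ± 86.5 CPM in DP turnover (log2 -1.64, SE 0.28, edgeR adjusted p = 0.016). The maintenance methyltransferase gene Dnmt1 (-1.10) and Topbp1 (-1.0), an activator of origin firing and of the checkpoint, fell as well. Samhd1, which degrades deoxynucleotides, had 10.8, 7.96, 4.05, 8.36 and 5.13 CPM in DP autonomy and 0 reads in the 4 DP turnover libraries (edgeR adjusted p = 0.0103), where 3 reads would be 0.114 to 0.437 CPM, counting error only. It ran from 0.149 to 4.57 CPM in DN3 autonomy and from 0 to 0.791 CPM in DN3 turnover. Summed macrophage markers averaged 66.3 ± 43.1 CPM in DP autonomy and 12.4 ± 11.8 in DP turnover. In DN3 cells that sum went the other way, with 4.85 ± 4.81 CPM in autonomy and 27.6 ± 7.59 in turnover. A link to Samhd1 was not tested. Ccne1 (-1.45, edgeR adjusted p = 0.0518), Ccne2 (-0.54), E2f1 (-1.63), E2f2 (-0.12) and Cdkn1a (-1.35) did not pass, and Mki67 fell (log2 -1.30, SE 0.26, edgeR adjusted p = 0.0293). The proliferation marker thus fell in DP autonomy and rose in DN3 autonomy, and its own difference between the stages passed (log2 -2.15, SE 0.38, edgeR adjusted p = 0.0023).

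The difference between the stages in the autonomy effect passed as lower in DP for 15 of the 60 other genes (2.61% of all genes) and as higher for 0 (2.88% of all genes), with 1 higher at an unadjusted p under 0.05, 1 by DESeq2 and 0 by limma voom. Ccne1 (log2 -2.87, SE 0.44, edgeR adjusted p = 0.00075), Ccna2 (log2 -2.54, SE 0.38, edgeR adjusted p = 0.000641) and Ccne2 (log2 -1.83, SE 0.34, edgeR adjusted p = 0.00299) were among them, and E2f1, E2f2 and Cdkn1a did not pass. Between DP and DN3 cells, 21 of 60 were lower and 6 higher under turnover, and 44 lower and 4 higher under autonomy. Over all genes tested, 19.1% were lower and 15.8% higher under turnover, and 25.2% lower and 23.7% higher under autonomy. Myc, a driver of growth and cycle entry, differed by -4.02 under turnover and -4.61 under autonomy, and Cdkn1b, the p27 inhibitor gene, by 2.84 and 2.54. E2f2 was higher in DP under both (1.70 and 1.18). Ccne1 did not pass under turnover (log2 0.15, SE 0.32, edgeR adjusted p = 0.761) and was lower in DP under autonomy (log2 -2.72, SE 0.31, edgeR adjusted p = 4.51e-07). Dctd, the dCMP deaminase gene, had 0 reads in all 9 DP libraries, where 3 reads would be 0.114 to 0.568 CPM, against 16.9 ± 2.51 CPM in DN3 autonomy and 13.4 ± 2.79 CPM in DN3 turnover. Mki67 was higher in DP under turnover, unlike the genes of the MCM ring (log2 1.25, SE 0.29, edgeR adjusted p = 0.00218), and lower in DP under autonomy (log2 -0.90, SE 0.26, edgeR adjusted p = 0.00601).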

How the data were processed

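RNA was sequenced from DN3 and DP thymocytes sorted from mashed thymi, with polyadenylated RNA taken up on oligo-dT beads and Pico Nextera libraries, per the labels' protocols. The authors deposited raw counts of reads for each Ensembl gene, unnormalized, and FastQC, HISAT2, featureCounts and DESeq2 were used with the builds mm10 and GRCm38, per the submitters' processing notes. The sources used here name no versions, settings or use of strand, so members that overlap genes on the opposite strand have uncertain counts. The authors' deposited tables also hold, per the file headers, DESeq2 log2 fold changes with p-values and adjusted p-values, a base mean (a signal, counts over size factors) and a Wald score; only their calls were used.

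The 18 count columns were matched to samples by name and grouped by the labels. The counts were tested in R 4.3.3 with edgeR 4.0.16 (glmQLFit and glmQLFTest, TMM, filterByExpr) and Benjamini-Hochberg adjustment over all genes tested, threshold 0.05, two-sided. Autonomy was compared with turnover in the 9 libraries of each stage, and DP with DN3 and the difference of effects in all 18, without a block. DESeq2 1.42.0, limma 3.58.1 (voom) and other settings were alternatives. The fits were tested on simulated counts. Total counts of 5032273 to 24191044 per library set the precision of low genes. Same-numbered DP and DN3 libraries did not deviate together (correlations -0.0346 to 0.0585). No pair of libraries agreed within sampling noise. Promoter windows came from RefSeq on GRCm38.p6, and exon lengths and overlaps from GENCODE M21 on GRCm38. Mcm4, Gmnn, Gins1, Gins2, Gins4, Prim2, Pole, Rfc2 and Tipin had no entry in the table of windows. Values are printed library by library for the 2 genes of each role with the highest level per length and for the largest changes, up to 3 per direction and comparison; Wdhd1 was added after its values were seen. The members and gene lists were chosen with earlier results of these data known.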

Additional observations from a re-analysis of the deposited data

Results flagged for a closer look

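In 11 of 204 combinations of gene and group, 1 library lay far from the others of its group by Dixon's test at the 95% level, and chance flags about 1 in 20. In DP autonomy these were RP1138 for Timeless (49.7 CPM), Rrm1 (540.3 CPM) and Dut (335 CPM), each the highest of its group, RP1135 for Wdhd1 (2.44 CPM) and RP1137 for Tyms (85.4 CPM), each the lowest. In DP turnover RP1140B was the highest for Mcm5 (263 CPM) and Prim2 (121 CPM), and RP1141A the lowest for Fen1 (47.2 CPM). In DN3 libraries, autonomy RP1135 was the lowest for Rfc5 (204 CPM), autonomy RP1134 the highest for Wdhd1 (177 CPM), and turnover RP1140B the lowest for Mcm7 (619 CPM).

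The effect of autonomy differed between the stages, by the test of the difference itself, in 26 genes, each lower in DP. In licensing and helicase genes, the log2 difference, DP minus DN3, was -1.18 for Mcm2, -1.21 for Mcm4, -1.08 for Mcm5, -1.36 for Mcm6, -1.32 for Orc6, -1.51 for Cdc6, -1.34 for Gmnn, -1.52 for Cdc45 and -1.05 for Gins2. At the fork it was -2.07 for Pola1, -1.09 for Pola2, -0.77 for Prim1, -1.80 for Pold1, -0.88 for Pold3, -0.96 for Pcna, -1.10 for Rfc4, -1.06 for Rpa1, -0.88 for Rpa2, -1.46 for Lig1, -1.73 for Timeless and -1.96 for Clspn. For nucleotide synthesis it was -1.51 for Rrm1, -1.54 for Rrm2, -1.21 for Tyms, -1.65 for Tk1 and -1.47 for Dut. Pola1, Clspn and Pold1 differed most of the 26, and Prim1, Pold3 and Rpa2 least.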

How the results depend on the processing

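For DN3 autonomy against turnover, the 1602 genes called became 2462 with DESeq2's Wald test, 1006 in a fit of all 18 libraries and 507 with the A and B libraries summed, and 811 to 1784 without each replicate in turn (811 without turnover RP1140A, 953 without autonomy RP1137, 1060 without autonomy RP1138). The 41 members called became 24 in the fit of all 18, 15 with libraries summed, and 24 to 41 without each replicate. For DP autonomy against turnover, the 178 genes called became 856 with Wald, 434 with limma voom, 279 in the fit of all 18 and 16 with libraries summed, and 33 to 252 without each replicate (33, 67 and 59 without turnover RP1140B, RP1141A and RP1141B, 66 and 98 without autonomy RP1133 and RP1135). The 2 members lower became 7, 5, 5 and 0 under the same 4 settings and 0 to 4 without each replicate. For DP against DN3 under turnover, 4021 genes became 2170 and the 37 members lower became 19 with libraries summed, and 1 member was higher in the fit of the 2 groups and with library totals, a setting added after the data were seen. For the difference of effects, 633 genes became 1103 with Wald and 145 with libraries summed, and the 26 members became 9 with libraries summed. Summing leaves 2 turnover samples per stage; the cause of the other shifts was not tested. All members called with libraries summed were among those called before, except 1 more for DP against DN3 under autonomy.

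The labels do not say if DP and DN3 libraries with a shared number came from the same animals, and the low correlations above cannot settle it. With the replicate block, the difference of effects passed in 291 genes and 17 members, and DP against DN3 in 34 members under turnover and 47 under autonomy. No paired analysis was possible within a stage because the groups share no number.

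Signs turned only in members that did not pass. In DP autonomy against turnover, Gins2 became -0.01 and Rfc3 -0.02 with library totals, and Pole2 -0.20 with libraries summed; without each replicate the log2 change ran from -0.29 to 0.06 for Mcm5, -0.06 to 0.36 for Orc2, -0.43 to 0.01 for Gins1, -0.11 to 0.13 for Gins2, -0.01 to 0.35 for Gins3, -0.10 to 0.30 for Gins4, -0.27 to 0.91 for Pole2, -0.02 to 0.17 for Rfc2, -0.12 to 0.16 for Rfc3, -0.01 to 0.37 for Rpa3 and -0.34 to 0.01 for Slbp. Under turnover, DP against DN3 ran from -0.29 to 0.14 for Gins3, -0.35 to 0.02 for Rpa3 (0.00 with library totals) and -0.13 to 0.32 for Rrm2, and the difference of effects from -0.92 to 0.31 for Pole2.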
